A study of Oryzias latipes with 6 samples.

Results

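Parvalbumins are small cytosolic calcium-binding proteins of the EF-hand superfamily. In fast skeletal muscle they take up the calcium that has been released for contraction, which speeds relaxation before the calcium pump returns the ion to the sarcoplasmic reticulum. Fish white muscle is unusually rich in them, and they are the best known fish allergens. In vertebrate brain, parvalbumin marks subsets of inhibitory neurons. Fish carry several parvalbumin genes, and oncomodulin is a further branch of the same family.

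Genes were taken as parvalbumins when their symbol, in lower case and without any copy suffix, began with pvalb or ocm. The rule found 6 of the 20459 genes in the authors' deposited table: pvalb1, pvalb4, pvalb5, pvalb6, pvalb7 and pvalb8. None of the 6 carried an oncomodulin symbol. Only pvalb1 and pvalb4 were among the 3286 genes that the authors tested, and the other 4 have expression values but no test. Family membership rests on the symbols alone, so a gene without a name cannot enter, and all family counts and shares below are for these 6 genes.

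The expression values come from axial tissue of Japanese medaka (Oryzias latipes, strain Orange-red Hd-dR), a small teleost. The first group was exposed to 0.3 nM TCDD for 1 h at the embryo stage, starting about 4 hours post fertilization. TCDD is a dioxin that activates the aryl hydrocarbon receptor. The other group received 0.1% DMSO, the solvent, over the same window. At 20 days post fertilization the vertebrae with muscle, fat and dermis were freed of head and viscera, and each RNA sample pooled 15 to 25 fish. There were 3 libraries per group, but the authors' deposited table gives 1 value per gene and group. No replicate spread can therefore be shown for any gene, and the depth of the libraries is unknown. The values were taken to be FPKM, a fragment number divided by gene length and by library size, though the unit is not stated. On that reading, levels of different genes can be set side by side per length. A gene is called changed when the authors' q-value, adjusted over all genes they tested, is below 0.05. Such a gene is said to fall when its value was lower in TCDD, and to rise when it was higher. Because this is bulk tissue, fewer cells of a type and less RNA per cell cannot be told apart.

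The tissue carried the markers of fast muscle in both groups. All 32 fast muscle markers found in the table were above 0 in TCDD, and 1 was listed at 0 in DMSO. Their values summed to 177773 FPKM in TCDD and 259329 FPKM in DMSO. Slow and cardiac muscle markers summed to 1151 FPKM in TCDD and 2082 FPKM in DMSO. Of these sums, the tropomyosin gene tpm2 alone gave 472 FPKM in TCDD and 1020 FPKM in DMSO. Both muscle marker sets are the same genes as the fast muscle list and the slow and cardiac muscle list used below. The fast muscle set includes metabolic genes such as gapdh. Markers of osteoblasts and fibroblasts summed to 1457 FPKM in TCDD and 5128 FPKM in DMSO, and 8 of the 10 tested ones fell. Among tested muscle markers, 10 of 27 fast ones and 3 of 7 slow and cardiac ones fell, and none rose. Of all tested genes, 7.46% were called lower. Neural markers summed to 821 FPKM in TCDD and 903 FPKM in DMSO, and none of the 10 tested ones passed the threshold. The 11 markers of sensory hair cells, cells in which parvalbumin-type proteins are also found, summed to 15.0 FPKM in TCDD and 11.2 FPKM in DMSO.

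The tested parvalbumins both had lower levels in TCDD fish, and pvalb4 passed the threshold. The pvalb4 level was 10465 FPKM in TCDD and 48170 FPKM in DMSO, a log2 fold change of -2.20 (q = 0.00105 in the authors' deposited table). The pvalb1 level was 119442 FPKM in TCDD and 228225 FPKM in DMSO, a log2 fold change of -0.93 that did not pass (q = 0.0915 in the authors' deposited table). Thus 1 of 2 tested parvalbumins fell, against 7.46% of all tested genes called lower in TCDD and 18.2% called in either direction. With 2 tested genes, that count alone says little about the family.

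**Figure D1:**
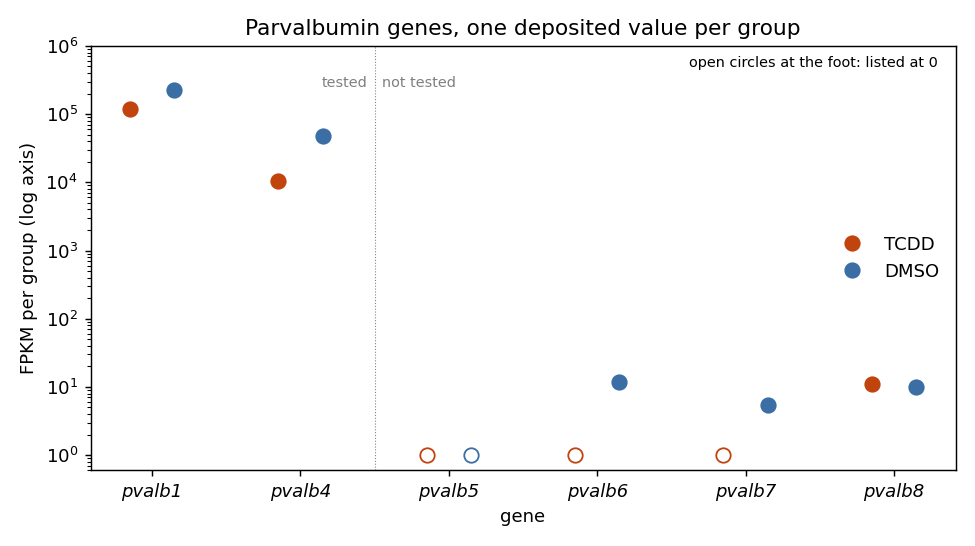
FPKM of the 6 parvalbumin genes on a log axis, with 1 point per group (TCDD left, DMSO right) and open circles for values listed at 0. The tested genes lie between 10465 and 228225 FPKM, whereas no untested one exceeds 11.95 FPKM.

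The most abundant transcript of the tissue was pvalb1 in both groups. It made up 10.8% of the FPKM total in TCDD and 17.4% in DMSO. Its level was 2.57 times that of the next gene in TCDD and 3.83 times in DMSO. That next gene was the muscle creatine kinase gene ckmb in TCDD and the skeletal actin gene acta1 in DMSO. The authors' deposited table places pvalb1 (ENSORLG00000009587) on chromosome 8 at 13217863 to 13218686, with no genome build stated in the sources used here. In the authors' deposited table its test statistic was -3.35, with an unadjusted p of 0.02245. An unadjusted p below 0.05 with a lower value in TCDD was reached by 13.9% of all tested genes.

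The pvalb4 gene held 0.944% of the FPKM total in TCDD and 3.66% in DMSO. It ranked 11 among all genes by level in TCDD and 3 in DMSO. Its TCDD level was 21.7% of its DMSO level, while that of pvalb1 was 52.3%. In the authors' deposited table pvalb4 (ENSORLG00000003404) lies on chromosome 19 at 2117401 to 2118999. Its test statistic there was -9.89, and its p of 5e-05 is the smallest that table gives, shared by 157 genes. Among the 245 genes called lower, 21 had a more negative log2 fold change than pvalb4 and none lost more FPKM. A gene listed at 0 in TCDD has no log2 fold change and cannot be among these 21. Over all genes, only pvalb1 lost more FPKM than pvalb4.

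The balance between both genes differed between the groups. The ratio of pvalb1 to pvalb4 was 11.4 in TCDD and 4.74 in DMSO. Within the summed family level, pvalb4 made up 8.05% in TCDD and 17.4% in DMSO, and pvalb1 made up 91.9% in TCDD and 82.6% in DMSO. The log2 fold changes of pvalb4 and pvalb1 differed by -1.27. That difference was not tested, because there are no values per library.

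The family as a whole held 129918 FPKM in TCDD and 276423 FPKM in DMSO. These are 11.7% of the group total in TCDD and 21.0% in DMSO. The totals themselves differed, at 1108805 FPKM in TCDD and 1315189 FPKM in DMSO. Relative to that net difference, the lower level of pvalb1, which did not pass the threshold, came to 52.7%. That of pvalb4 came to 18.3%, and both together to 71.0%. The net difference sets higher values against lower ones, so these percentages are not shares of all that was lower. On this scale the mitochondrial ENSORLG00000021755, which was higher in TCDD, counts as -8.28%. Without the 6 parvalbumins the totals were 978888 FPKM in TCDD and 1038766 FPKM in DMSO. With totals set equal, every log2 fold change shifts by 0.25, which gives -0.69 for pvalb1 and -1.96 for pvalb4. With the parvalbumins left out of the totals, the shift is 0.09.

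**Figure D2:**
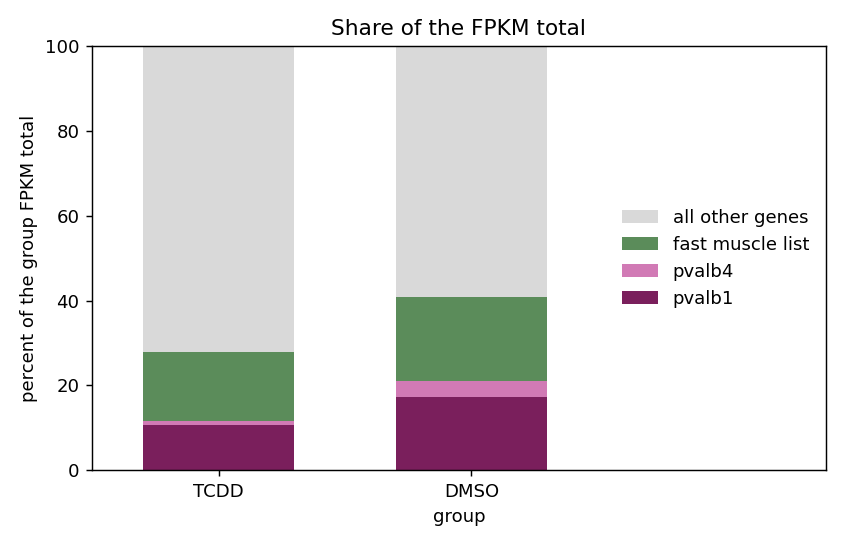
Percent of the FPKM total of each group (TCDD left, DMSO right) held by pvalb1, pvalb4, the fast muscle list and all other genes. The parvalbumin segments together reach 11.7% in TCDD and 21.0% in DMSO, and the fast muscle list adds 16.0% in TCDD and 19.7% in DMSO.

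The other 4 genes found by the rule were close to or at 0. The pvalb8 gene had 11.1 FPKM in TCDD and 10.0 FPKM in DMSO. The pvalb6 gene was listed at 0 in TCDD and at 11.95 FPKM in DMSO. The pvalb7 gene, a marker of cerebellar Purkinje cells in zebrafish, was listed at 0 in TCDD and at 5.34 FPKM in DMSO. The pvalb5 gene was listed at 0 in both groups. Together these 4 genes gave 0.00851% of the family level in TCDD and 0.00988% in DMSO. Their means lie below 13.7 FPKM, the lowest mean of any gene the authors tested. Being listed at 0 in only 1 group was also seen outside the family among the 17173 genes without a test. It was so in TCDD for 982 of them, pvalb6 and pvalb7 included, and in DMSO for 1246. No change can be read from these values, since neither read counts nor a test stand behind them.

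The pvalb5, pvalb1 and pvalb8 genes are neighbours on chromosome 8. In the authors' deposited table pvalb5 spans 13213654 to 13215242, followed by pvalb1 and, at 13226583 to 13228306, by pvalb8. Their levels in this stretch ran from 0 FPKM for pvalb5 to the highest level of the tissue for pvalb1. Between pvalb1 and pvalb8 the table holds 1 further gene without a name, ENSORLG00000009594, at 13220870 to 13222018. It had 9124 FPKM in TCDD and 11891 FPKM in DMSO, a log2 fold change of -0.38 (q = 0.388 in the authors' deposited table). By level it ranked 17 among all genes in TCDD and 16 in DMSO. In TCDD its level was close to that of pvalb4, but in DMSO it was far below the 48170 FPKM of pvalb4. Whether it belongs to the parvalbumin family was not tested, and it is in none of the family counts and shares above. The flanking gene lmtk2, upstream of pvalb5 in coordinate order, had 22.0 FPKM in TCDD and 38.6 FPKM in DMSO (q = 0.049 in the authors' deposited table). On the other flank aimp2 had 109 FPKM in TCDD and 101 FPKM in DMSO (q = 0.833 in the authors' deposited table). The pvalb6 gene lies apart on chromosome 8 at 18500265 to 18501568, and pvalb7 on chromosome 1 at 28420655 to 28421144. None of the 6 loci overlaps another gene of the table. Reads from similar parvalbumin copies could still have been divided between loci, and the sources used here do not say how such reads were counted.

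The parvalbumins were set beside the other very abundant genes. Of the 10 genes with the highest mean level, 7 were lower in TCDD, but only pvalb4 passed the threshold in the authors' deposited table. The acta1 gene, skeletal actin, had 33214 FPKM in TCDD and 59588 FPKM in DMSO (q = 0.216 in the authors' deposited table). The fast troponin T gene tnnt3a had 18418 FPKM in TCDD and 32030 FPKM in DMSO (q = 0.154 in the authors' deposited table). The levels of ckmb were 46478 FPKM in TCDD and 44944 FPKM in DMSO, so it stood above pvalb4 in TCDD and below it in DMSO. The myosin light chain gene mylpfb had 14089 FPKM in TCDD and 17987 FPKM in DMSO. Of the pair without a name, the mitochondrial ENSORLG00000021755 had 30258 FPKM in TCDD and 13163 FPKM in DMSO, and ENSORLG00000004035 had 11785 FPKM in TCDD and 16429 FPKM in DMSO. Among all 128 tested genes with a mean of at least 1000 FPKM, 12 fell and 8 rose. For comparison, 245 of all 3286 tested genes were called lower (7.46%) and 352 higher (10.7%).

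**Figure D3:**
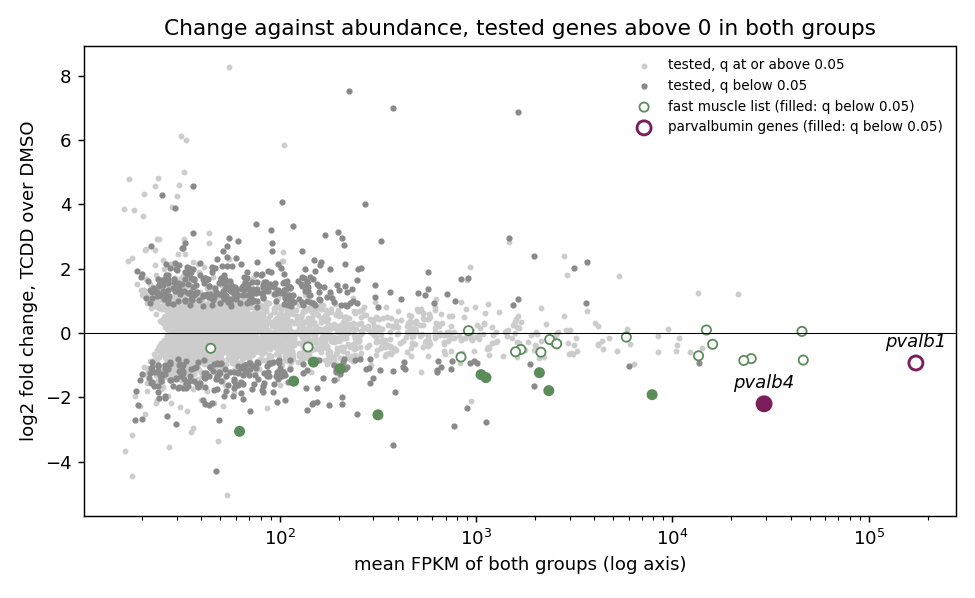
Log2 fold change of TCDD over DMSO against the mean FPKM of both groups (log axis) for tested genes above 0 in both groups. Among the 10 most abundant genes pvalb4 has the most negative value at -2.20, and pvalb1, farthest to the right, lies at -0.93.

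Genes nearest to each parvalbumin in log2 fold change were sought among 104 tested and named genes with a mean of at least 1000 FPKM. Likeness here rests on 2 group values only. Nearest to pvalb4 were mylpfa, a fast myosin light chain gene, at -1.92 and TNNI2 (3 of 5), a fast troponin I copy, at -1.79. The others were KRT23 (5 of 5), a keratin gene, at -2.77, mybphb, a myosin-binding protein H gene, at -1.39 and aldoaa, a glycolytic aldolase gene, at -1.30. All 5 fell (each q = 0.00105 in the authors' deposited table), but they were picked for lying near the log2 fold change of pvalb4. The farthest of them, aldoaa, differed from it by 0.91. Nearest to pvalb1 was zgc:171719, which had 9405 FPKM in TCDD and 17948 FPKM in DMSO. Its log2 fold change of -0.93 matched that of pvalb1 to 0.002, yet it passed the threshold (q = 0.0345 in the authors' deposited table). The others were Y_RNA at -0.95, the mitochondrial ND5 gene at -0.96, TNNI2 (5 of 5) at -0.86 and acta1 at -0.84. Of these only ND5 passed the threshold (q = 0.0226 in the authors' deposited table). The loci of ND5, KRT23 (5 of 5), mybpc2b and ENSORLG00000021755 overlap other genes of the table, so their reads are uncertain.

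Many other fast muscle genes were also lower in TCDD fish. Of 27 tested genes in the fast muscle list 10 fell and none rose in the authors' deposited table, or 37.0% called lower against 7.46% of all tested genes. Their median log2 fold change was -0.75, against 0.05 for all tested genes. Besides those named above, the 10 included the phosphofructokinase gene pfkmb at -3.06, the phosphoglycerate mutase gene pgam2 at -2.55, the tropomyosin gene tpma at -1.24 and mybpc2b, a myosin-binding protein C gene, at -1.50. The creatine kinase gene ckma, at 15386 FPKM in TCDD and 14434 FPKM in DMSO, did not pass (q = 0.876 in the authors' deposited table). Set against the sum of the fast muscle list, pvalb1 stood at 0.672 in TCDD and 0.880 in DMSO. On the same scale pvalb4 stood at 0.0589 in TCDD and 0.186 in DMSO. Both groups scaled to equal sums of this list, a setting chosen after seeing the data, give log2 fold changes of -1.66 for pvalb4 and -0.39 for pvalb1. The list itself contains called genes, so this is a relative level and not a correction for muscle content.

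Slow and cardiac muscle genes were far less abundant than the parvalbumins. Of 7 tested members 3 fell and none rose in the authors' deposited table (42.9% lower, against 7.46% of all tested genes), with a median log2 fold change of -0.80. The tropomyosin gene tpm2 had 472 FPKM in TCDD and 1020 FPKM in DMSO (q = 0.00373 in the authors' deposited table). The slow-type troponin I gene tnni1d was at -1.30 and the tropomyosin gene TPM3 at -0.80, and both fell. Among those that did not pass there, the myosin heavy chain genes MYH6 and smyhc3 were at -0.16 and -0.38 and the troponin T gene tnnt2e at -0.80.

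Parvalbumin shares its calcium with the machinery of the sarcoplasmic reticulum, the muscle calcium store. Of 20 tested genes in that list 5 fell and none rose in the authors' deposited table (25.0% lower, against 7.46% of all tested genes), with a median log2 fold change of -0.71. The calsequestrin gene casq1a, whose product binds calcium inside the store, had 433 FPKM in TCDD and 894 FPKM in DMSO (q = 0.0053 in the authors' deposited table). The sarcalumenin gene srl, also of the store lumen, had 131 FPKM in TCDD and 272 FPKM in DMSO (q = 0.00575 in the authors' deposited table). Further entries of both genes, casq1b at -0.80 and SRL (2 of 2) at -0.73, did not pass. The junctophilin gene jph1a, which ties the store to the surface membrane, was at -1.22, and the calcium channel subunit genes cacna2d1a and cacng6b were at -1.18 and -1.34. All 3 fell. The most abundant gene of the list was atp2a1l, a calcium pump gene, with 9873 FPKM in TCDD and 9070 FPKM in DMSO (q = 0.85 in the authors' deposited table). It stood near pvalb4 in TCDD, whereas pvalb4 was 5.31 times as high in DMSO. The channel gene tmem38a had 1464 FPKM in TCDD and 1392 FPKM in DMSO (q = 0.883 in the authors' deposited table), and jph2 had 296 FPKM in TCDD and 351 FPKM in DMSO (q = 0.59 in the authors' deposited table).

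The list of other EF-hand proteins had no common direction. Of 12 tested genes 2 rose and none fell in the authors' deposited table (16.7% higher, against 10.7% of all tested genes). The median log2 fold change was 0.17. Members that did not pass ran from -2.53 for s100t to 0.69 for s100a10a. The list's summed level was 11487 FPKM in TCDD and 17799 FPKM in DMSO, most of it from tnnc2. The calcineurin-like protein gene chp1 had 163 FPKM in TCDD and 72.2 FPKM in DMSO (q = 0.0106 in the authors' deposited table). The sdf4 gene, which encodes a Golgi calcium-binding protein, had 73.4 FPKM in TCDD and 32.2 FPKM in DMSO (q = 0.0373 in the authors' deposited table). The fast troponin C gene tnnc2, the calcium sensor of the thin filament and also a member of the fast muscle list, had 10314 FPKM in TCDD and 16881 FPKM in DMSO (q = 0.121 in the authors' deposited table). Calpain subunit gene capns1b had 210 FPKM in TCDD and 139 FPKM in DMSO (q = 0.16 in the authors' deposited table), and its paralog capns1a had 147 FPKM in TCDD and 131 FPKM in DMSO.

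Of 6 tested genes of calcium-activated signalling 1 fell and none rose in the authors' deposited table (16.7% lower, against 7.46% of all tested genes), with a median log2 fold change of -0.62. A single call among so few genes says nothing about the list. That gene was capn3b, a muscle calpain gene, with 16.3 FPKM in TCDD and 42.8 FPKM in DMSO (q = 0.00427 in the authors' deposited table). The calpain gene capn2b at 0.59, the kinase gene mylk4b at -1.19 and the calmodulin-dependent kinase gene camk2g1 at -0.05 did not pass there.

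**Figure D4:**
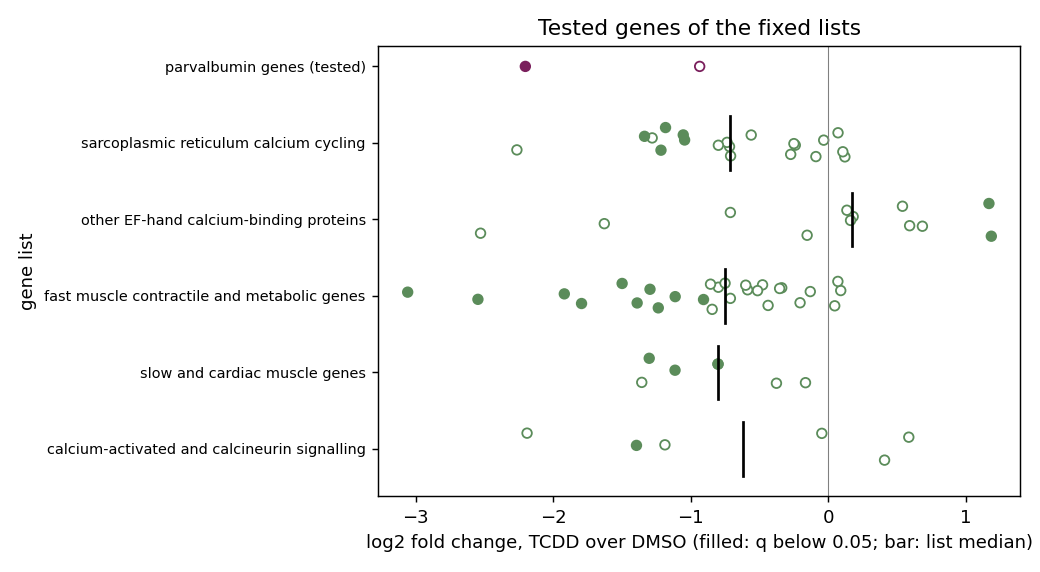
Log2 fold change of TCDD over DMSO for the tested parvalbumins and the tested genes of 5 lists, filled where q is below 0.05, with a bar at each list's median. Medians lie between -0.80 and -0.62 for 4 lists and at 0.17 for the other EF-hand proteins, and pvalb4 lies at -2.20.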

How the data were processed

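The series has 6 libraries, 3 TCDD and 3 DMSO, sequenced on the Ion Torrent PGM from polyA RNA (2 µg total RNA, RNA integrity number at least 9.9, per the labels' protocols). The labels do not say that the pools of a group were independent broods, so p-values measure only the spread between these samples, which may be technical. Bowtie2 2.2.6 and DESeq2 are named in the submitters' processing notes without saying what each did; the table has the layout of a Cuffdiff gene test, so the program behind its values is not settled. Per the file headers, the authors deposited a group value in TCDD and in DMSO for each gene, with a score (their test statistic) and its p-value and q-value. These group values were taken to be FPKM, scaled by the authors for gene length and library size, which is the unit of that layout. How libraries were combined, and the genome build, are not given in the sources used. Depth per library is unknown because no gene lengths or counts accompany the FPKM.

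The planned fallback to the authors' own test was used. Q-values equalled Benjamini-Hochberg values over the 3286 tested genes to within 5.11e-07. Log2 fold changes were recomputed from group values without a pseudocount; genes listed at 0 in a group have none. Shares are percent of the sum over all 20459 genes. Named genes were all parvalbumins, the 10 genes of highest mean and the 5 nearest each tested parvalbumin in log2 fold change (mean at least 1000 FPKM). From each of 5 lists, up to 8 called members and the 3 most abundant others were named. Flanking genes and some further list members, such as casq1b and SRL (2 of 2), were chosen after their values were seen. The members and lists were chosen with earlier results of these data known. Code was tested on simulated data. Python 3.11.15, pandas 2.3.3, numpy 2.4.6 and matplotlib 3.10.9 were used. A RefSeq gene table had no matching identifiers and was left out.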

Additional observations from a re-analysis of the deposited data

How the results depend on the processing

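Both tested parvalbumins kept a lower value in TCDD under all alternatives run. Settings that change only the threshold leave the log2 fold change as it is, and a pseudocount of 1 is negligible at these levels. For the log2 fold changes, only the rescalings could therefore have altered the direction. With a pseudocount of 1, q 0.01, and q recomputed for 1723 genes with a mean of at least 50 FPKM (q = 0.0832 for pvalb1 and 0.000712 for pvalb4), neither call changed. Centred on the median of the tested genes, log2 fold changes were -0.98 for pvalb1 and -2.25 for pvalb4. The authors' test was not rerun on rescaled values. At an unadjusted p of 0.05 pvalb1 also passed (log2 fold change -0.93), giving 2 parvalbumins and 1070 genes in all. Under Bonferroni adjustment pvalb4 no longer passed (log2 fold change -2.20, adjusted p = 0.164), leaving 0 parvalbumins and 0 genes, since the smallest p, 5e-05, cannot reach 0.05 over 3286 genes. At q 0.01 300 genes passed and among genes of at least 50 FPKM 376, against 597 at q 0.05.

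The difference in share, TCDD minus DMSO, was -6.58 percentage points for pvalb1, -2.72 for pvalb4 and -9.30 for the family. Taken of the tested genes it was -6.97, -2.97 and -9.94 in that order, and of named genes -6.75, -3.00 and -9.75. Without mitochondrially encoded genes it was -6.62, -2.80 and -9.43. Set against a total without pvalb1, the differences were -8.92, -3.37 and -12.3. There pvalb1 still counted in its own level and in the family level. For pvalb1 and the family these last values are therefore ratios to the other genes and not shares. The spread of these shares between libraries is unknown.

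No paired analysis was possible because the libraries of a group stand in the table as a single value. For the same reason leaving out each library was not run, and an unfiltered test was not run because untested genes have no p-value of their own.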
